A study of Mus musculus with 12 samples.

Results

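Transcript levels of 10 genes of blood coagulation and thrombin signalling were followed in the brains of 12 mice. The genes were taken by symbol from the authors' table of 27131 genes, and all 10 had a row. They are F2 (prothrombin), F3 (tissue factor), F5 (factor V), F13a1 (the A chain of the fibrin cross-linking enzyme factor XIII), Tfpi (tissue factor pathway inhibitor), Thbd (thrombomodulin), Procr (the endothelial protein C receptor), Pros1 (protein S), A2m (alpha-2-macroglobulin) and F2r (the thrombin receptor PAR1). The libraries came from 4 mice of the Old strain, 4 of the New strain and 4 WT mice, all 6 weeks of age. Old and New are the names that the sample titles give to independent Plat-/- strains, both labelled C57BL/6, and WT mice are C57BL/6J. The product of Plat is tissue-type plasminogen activator, the protease that turns plasminogen into plasmin. What was removed from Plat in either strain is not stated in the labels. WT mice were bought and the knockout mice were kept by the laboratory, so the source of the animals and the genotype cannot be told apart in any comparison with WT.

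In the blood, injury exposes tissue factor, which starts a cascade of proteases that ends in thrombin. Thrombin cuts fibrinogen into fibrin, and fibrin is later dissolved by plasmin. Tissue factor pathway inhibitor restrains the start of the cascade, whereas thrombomodulin, the endothelial protein C receptor and protein S turn thrombin towards an anticoagulant pathway. Most of the circulating zymogens are made in the liver. Brain is known as a tissue rich in tissue factor, most of it in astrocytes, and thrombin signals to neurons and glia through protease-activated receptors such as PAR1.

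Levels are in FPKM, which corrects fragment numbers for the length of the transcript and the size of the library, so levels of different genes can be set side by side. Cerebral cortex is the labelled tissue, but the protocol removed no more than olfactory bulb and cerebellum from the brain. Cortical transcripts were present (Tbr1, a transcription factor of deep cortical layers, averaged 25.4 FPKM), and so were those of striatum (Penk, 99.6 FPKM) and choroid plexus (Ttr, 217.1 FPKM). The liver marker Alb averaged 0.00805 FPKM, and residual blood cells were represented by Hba-a1 at 13.8 FPKM. Hba-a1 was lowest in Old 1 and WT 4, at 7.29 and 6.40 FPKM. The related Hba-a2 stood at 11.0 and 22.1 FPKM there but at most 0.00859 FPKM in the other libraries. The mean of Hba-a1 alone therefore does not measure blood evenly across libraries. Bulk brain RNA cannot separate fewer cells of a type from less RNA per cell. Plat itself stood at 1.76 ± 0.296 FPKM in Old, 2.88 ± 0.182 FPKM in New and 8.43 ± 1.24 FPKM in WT (SD, n = 4 each), with all 8 knockout libraries below all 4 WT libraries.

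The file gives no read counts, but the low values of genes with a single transcript fell on steps that reveal the worth of 1 fragment. In 10 libraries these steps corresponded to between 18980000 and 41670000 fragments, with 78.4% to 84.6% of low values within 0.15 of a whole number of fragments. The step was fitted to these same values, so the percentages describe the fit and do not test the depth. WT 4 and Old 1 showed no clear step, and their depth was not estimated. These libraries were also low for many of the genes described here, and differences are given with and without them. The labels give no sex. Ddx3y, a gene of the Y chromosome, stood at 8.22 FPKM in Old 1, 15.4 FPKM in Old 4, 13.4 FPKM in New 1 and 6.51 FPKM in WT 4. It was at most 0.0242 FPKM in the other libraries. Leaving out WT 4 and Old 1 therefore also removes the only WT library with Ddx3y and changes this mix in Old.

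The 10 genes spanned a wide range of levels, in an order that was nearly the same in the 3 groups. F3 was the highest, at 15.4 ± 1.61 FPKM in Old, 15.5 ± 1.47 FPKM in New and 14.4 ± 2.72 FPKM in WT (SD, n = 4 each), above 85.4% of all genes of the table in WT. Thbd, Pros1 and F2r followed at 3.72 ± 0.247, 2.55 ± 0.673 and 2.01 ± 0.389 FPKM in WT (SD, n = 4). F5, Tfpi and A2m came next, with WT means of 1.36 ± 0.450, 1.24 ± 0.304 and 1.19 ± 0.251 FPKM and ranges that overlapped one another. F13a1 averaged 0.504 ± 0.106 FPKM and Procr 0.209 ± 0.123 FPKM in WT, and F2 lay at the bottom. F3 exceeded Thbd, and Thbd exceeded Pros1, in 12 of 12 libraries, whereas Pros1 exceeded F2r in 11 of 12. Tfpi exceeded A2m in 8 of 12 libraries and F5 exceeded Tfpi in 4 of 12, so the order among these genes did not stand out from the spread between mice.

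**Figure D1:**
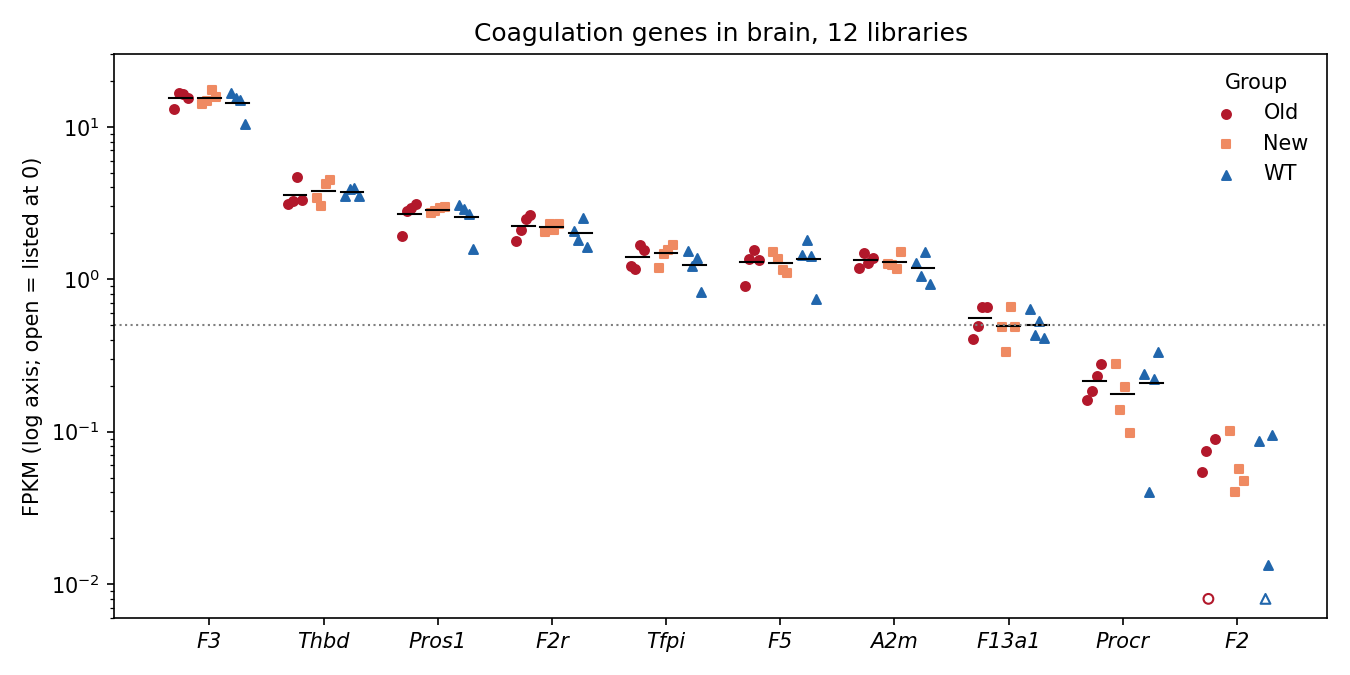
FPKM (log axis) of each gene in the 4 Old (circles), 4 New (squares) and 4 WT (triangles) libraries, with group means as black lines (none for F2) and open symbols for libraries in which the gene was listed at 0. The dotted line marks 0.5 FPKM, and within each gene the 3 groups overlap.

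The promoters of the highest member, of the receptor and of the lowest member are shown, since these genes mark the ends of the range and the signalling arm. Each window runs from 250 bases before to 50 after the RefSeq start (GRCm38.p6), 5′ to 3′ on the strand of the gene. Capitals mark matches to 3 motifs, searched on both strands. The GC box was GGGCGG. The TATA box was TATAAA. The AP-1 site was TGANTCA, with any base at N. No marked matches overlapped one another.
F3, chr3:121723287-121723586, plus strand: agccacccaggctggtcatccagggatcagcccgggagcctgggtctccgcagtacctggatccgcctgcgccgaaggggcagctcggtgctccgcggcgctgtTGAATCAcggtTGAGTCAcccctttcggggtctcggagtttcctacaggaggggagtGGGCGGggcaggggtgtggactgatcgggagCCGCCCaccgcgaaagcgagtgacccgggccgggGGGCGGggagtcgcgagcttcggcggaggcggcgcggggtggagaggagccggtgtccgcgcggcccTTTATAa
F2r, chr13:95618417-95618716, minus strand: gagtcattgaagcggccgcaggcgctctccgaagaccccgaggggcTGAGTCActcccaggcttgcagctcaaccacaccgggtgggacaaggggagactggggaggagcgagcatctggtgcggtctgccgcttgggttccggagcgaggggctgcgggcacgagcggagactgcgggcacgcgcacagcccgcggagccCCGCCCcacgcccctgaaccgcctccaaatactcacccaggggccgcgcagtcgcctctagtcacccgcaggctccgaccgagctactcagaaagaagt
F2, chr2:91636408-91636707, minus strand: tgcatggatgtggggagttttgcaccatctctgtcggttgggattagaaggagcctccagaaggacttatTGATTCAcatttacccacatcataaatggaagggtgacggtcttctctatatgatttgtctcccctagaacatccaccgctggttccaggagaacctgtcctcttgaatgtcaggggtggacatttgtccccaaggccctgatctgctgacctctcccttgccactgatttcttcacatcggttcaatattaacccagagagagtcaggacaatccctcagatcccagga

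The F3 window held 32 CpG dinucleotides, 3 GC boxes, 2 AP-1 matches and 1 TATA match. The F2r window held 28 CpG dinucleotides, 1 GC box and 1 AP-1 match, and that of F2 held 4 CpG dinucleotides and 1 AP-1 match. A GC box occurred in 35.7% of all 32851 promoter windows, a TATA match in 13.6% and an AP-1 match in 7.81%, and the median window had 7 CpG dinucleotides. Windows were at hand for 8 of the 10 genes. Pros1 had 21 CpG dinucleotides and Procr 13, while each window of F5, F13a1 and Tfpi held between 3 and 5. A match describes the letters only.

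Tissue factor, the initiator, is a membrane protein that binds factor VII. F3 (chromosome 3, 121723537 to 121735048, plus strand, mm10, protein-coding) stood, in the order of replicates 1 to 4, at 13.1, 16.5, 16.5 and 15.4 FPKM in Old, at 14.1, 14.8, 17.5 and 15.6 FPKM in New and at 16.6, 15.5, 14.9 and 10.4 FPKM in WT. The WT range contained every Old library, and WT 4 was the lowest of all 12. The difference on the log2(FPKM + 0.1) scale was 0.11 (95% interval -0.20 to 0.42) for Old against WT and 0.12 (-0.18 to 0.43) for New against WT. Neither passed (limma over all tested genes, adjusted p = 1 and 0.965). Without WT 4 and Old 1 the differences were 0.04 and -0.02, so the direction in New turned. The level of F3 corresponded to an estimated 493 to 1180 fragments per library.

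Tissue factor pathway inhibitor blocks factor Xa and the complex of tissue factor with factor VIIa. Tfpi (chromosome 2, 84432855 to 84476775, minus strand) stood at 1.22, 1.17, 1.67 and 1.54 FPKM in Old, at 1.18, 1.47, 1.56 and 1.69 FPKM in New and at 1.54, 1.21, 1.37 and 0.826 FPKM in WT. The groups overlapped, and the single value under 1 FPKM was that of WT 4. Tfpi had the largest difference from WT among the tested members, 0.18 (95% interval -0.23 to 0.60) in Old and 0.26 (-0.16 to 0.67) in New. Neither passed (limma, adjusted p = 1 and 0.965), and without WT 4 and Old 1 they were 0.07 and 0.09. Within a library, F3 exceeded Tfpi 11.2 ± 2.01-fold in Old, 10.6 ± 1.19-fold in New and 11.8 ± 1.09-fold in WT (FPKM ratio, SD, n = 4 each).

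Prothrombin, the precursor of thrombin, was at the edge of detection. F2 (chromosome 2, 91625320 to 91636414, minus strand) stood at 0.0540, 0.0748, 0 and 0.0896 FPKM in Old, at 0.101, 0.0402, 0.0568 and 0.0472 FPKM in New and at 0.0875, 0, 0.0134 and 0.0949 FPKM in WT. It was listed at 0 in Old 3 and WT 2, and in the 10 libraries with a clear step the values corresponded to between 0 and 7.19 fragments. Most estimates lay close to whole numbers, such as 4.99 in Old 2, 1.98 in New 2 and 2.98 in WT 1, but that of New 1 was 7.19. F2 has 3 annotated transcripts, whereas the steps came from genes with a single transcript. No comparison between groups is meaningful at such low fragment numbers.

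Factor V is the cofactor of factor Xa, and protein S and activated protein C limit it. F5 (chromosome 1, 164151838 to 164220277, plus strand) stood at 0.903, 1.36, 1.56 and 1.34 FPKM in Old, at 1.51, 1.36, 1.15 and 1.10 FPKM in New and at 1.45, 1.82, 1.42 and 0.736 FPKM in WT. WT 2 was the highest and WT 4 the lowest of the 12 libraries, so WT alone spanned the whole range. The difference was -0.03 (95% interval -0.56 to 0.51) in Old and -0.02 (-0.55 to 0.51) in New, the widest intervals among the members. Neither passed (limma, adjusted p = 1 and 0.994). Without WT 4 and Old 1 the differences were -0.12 and -0.27, and they did not pass either. The opposite-strand Gm16548, which overlaps the start of F5, averaged 0.0229 FPKM.

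The A chain of factor XIII is also a known product of macrophages. F13a1 (chromosome 13, 36867178 to 37050244, minus strand) stood at 0.406, 0.496, 0.660 and 0.657 FPKM in Old, at 0.486, 0.333, 0.660 and 0.485 FPKM in New and at 0.641, 0.428, 0.535 and 0.413 FPKM in WT. Its mean over the 12 libraries, 0.517 FPKM, lay just above the minimum of 0.5 FPKM for testing. The difference was 0.11 (95% interval -0.39 to 0.61) in Old and -0.04 (-0.54 to 0.45) in New (limma, adjusted p = 1 and 0.983), and without WT 4 and Old 1 it was 0.15 and -0.12. The summed level of 9 markers of border macrophages ran from 4.35 to 5.61 FPKM in Old, 3.92 to 6.15 FPKM in New and 4.93 to 5.86 FPKM in WT, and New 2 was the lowest of the 12 libraries for the sum and for F13a1. WT 4, by contrast, had the highest sum and the lowest F13a1 value of the WT libraries. Its markers did not move together. Against the 10 libraries other than WT 4 and Old 1, 1 of the 9 lay above the range, 6 within it and 2 below it. The marker above was Cbr2, at 1.30 FPKM, and Mrc1 was the lowest of the 12 libraries in WT 4, at 0.615 FPKM. The part of border macrophages in the F13a1 values was not tested. Antisense genes overlap F13a1, and the library kit does not mark strand, so reads of either strand cannot be told apart.

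The protein C pathway was represented by its cofactor and both membrane receptors, while Proc, which encodes protein C itself, was listed at 0 in all 12 libraries. Pros1 (chromosome 16, 62854307 to 62929346, plus strand) also encodes a ligand of the receptors Tyro3 and Mertk. It stood at 1.92, 2.80, 2.92 and 3.10 FPKM in Old, at 2.73, 2.81, 2.93 and 2.97 FPKM in New and at 3.07, 2.87, 2.70 and 1.57 FPKM in WT. Old 1 and WT 4 were the lowest values, and the other 10 libraries lay between 2.70 and 3.10 FPKM. The difference was 0.09 (95% interval -0.34 to 0.53) in Old and 0.20 (-0.24 to 0.63) in New (limma, adjusted p = 1 and 0.965), and without WT 4 and Old 1 it was 0.03 and -0.01.

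Thrombomodulin binds thrombin on endothelium. Thbd (chromosome 2, 148404466 to 148408188, minus strand, a gene of 1 exon) stood at 3.09, 3.26, 4.67 and 3.29 FPKM in Old, at 3.43, 3.04, 4.21 and 4.46 FPKM in New and at 3.49, 3.90, 3.97 and 3.53 FPKM in WT. The WT values lay close together, and the libraries Old 3, New 3 and New 4 lay above all of them. The difference was -0.07 (95% interval -0.40 to 0.25) in Old and 0.01 (-0.31 to 0.33) in New (limma, adjusted p = 1 and 0.998), and without WT 4 and Old 1 it was -0.04 and -0.02, so the direction in New turned. The summed level of 14 endothelial markers was 81.2 to 87.9 FPKM in Old, 85.4 to 92.0 FPKM in New and 83.7 to 88.6 FPKM in WT, with New 3 and New 4 the highest and Old 1 the lowest. Old 3, the highest library for Thbd, had a sum of 86.5 FPKM, and New 2, the lowest for Thbd, had 87.1 FPKM. The part of endothelial cells in the Thbd values was not tested.

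The endothelial protein C receptor presents protein C to thrombomodulin-bound thrombin. Procr (chromosome 2, 155751117 to 155755471, plus strand) stood at 0.160, 0.185, 0.233 and 0.277 FPKM in Old, at 0.277, 0.138, 0.195 and 0.0973 FPKM in New and at 0.240, 0.0401, 0.220 and 0.335 FPKM in WT. WT alone spanned the whole range, with WT 4 the highest library. In the 10 libraries with a clear step these values corresponded to an estimated 1.06 to 15.4 fragments. With a mean of 0.2 FPKM over the 12 libraries, Procr fell under the minimum for testing.

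Alpha-2-macroglobulin is a protease trap that encloses many kinds of protease, thrombin and plasmin among them. A2m (chromosome 6, 121635376 to 121679227, plus strand) stood at 1.18, 1.49, 1.28 and 1.38 FPKM in Old, at 1.27, 1.24, 1.16 and 1.5 FPKM in New and at 1.27, 1.05, 1.5 and 0.936 FPKM in WT. The WT libraries again held both the lowest and the highest value. The difference was 0.17 (95% interval -0.16 to 0.49) in Old and 0.13 (-0.20 to 0.45) in New (limma, adjusted p = 1 and 0.965), and without WT 4 and Old 1 it was 0.12 and 0.03. Without WT 4 alone the A2m difference was 0.07 in Old and 0.03 in New. The related genes Pzp and Mug1, whose reads could be confused with those of A2m, averaged 0.0542 FPKM and 0 FPKM. Lrp1, the endocytic receptor that clears complexes of alpha-2-macroglobulin, stood at 47.2 ± 8.73 FPKM in Old, 42.96 ± 1.57 FPKM in New and 47.2 ± 8.58 FPKM in WT (SD, n = 4 each). The highest Lrp1 values were those of Old 1 and WT 4, at 60.2 and 59.99 FPKM.

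PAR1 is a receptor that thrombin switches on by cutting its outer end. F2r (chromosome 13, 95601803 to 95618487, minus strand) stood at 1.79, 2.09, 2.48 and 2.62 FPKM in Old, at 2.05, 2.31, 2.11 and 2.30 FPKM in New and at 2.07, 1.82, 2.53 and 1.63 FPKM in WT. New spanned a narrow range inside that of both other groups, and WT 4 and Old 1 were the lowest libraries. The difference was 0.16 (95% interval -0.17 to 0.48) in Old and 0.14 (-0.18 to 0.46) in New (limma, adjusted p = 1 and 0.965), and without WT 4 and Old 1 it was 0.16 and 0.05.

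Among the protease-activated receptors F2r was the highest. It made up 56.5% ± 7.27 of the summed FPKM of the 4 receptor genes in Old, 53.4% ± 2.31 in New and 54.6% ± 6.02 in WT (SD, n = 4 each). F2rl2, which encodes PAR3, a receptor that assists PAR4 in mouse platelets, stood at 0.970 ± 0.198 FPKM in Old, 1.16 ± 0.137 FPKM in New and 0.977 ± 0.340 FPKM in WT. F2rl3 (PAR4) stood at 0.478 ± 0.116, 0.390 ± 0.123 and 0.399 ± 0.137 FPKM in the same groups. F2rl1 (PAR2), which is cut by trypsin-like proteases rather than thrombin, stood at 0.270 ± 0.0337 FPKM in Old, 0.369 ± 0.0284 FPKM in New and 0.281 ± 0.0591 FPKM in WT (SD, n = 4 each). The F2rl1 values of 0.237 to 0.314 FPKM in Old lay below the 0.330 to 0.393 FPKM of New, and the gene was under the minimum for testing. New also lay above the WT values of 0.204 to 0.328 FPKM. Ranges did not overlap in 1.79% of tested genes for Old and New, and in 2.6% for New and WT, shares that leave out genes as low as F2rl1. F2rl1 was not the only coagulation gene to separate New from WT. All New libraries lay above all WT libraries for Serpine2 (at least 50.03 against at most 49.76 FPKM) and C1qbp (at least 22.37 against at most 22.30 FPKM). The same held for F10, a gene near the floor (at least 0.0331 against at most 0.0226 FPKM). They lay below them for Serping1 (2.64 to 2.79 against 2.97 to 3.25 FPKM). These genes were named after their values were seen, and the share over the whole list was not computed.

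**Figure D2:**
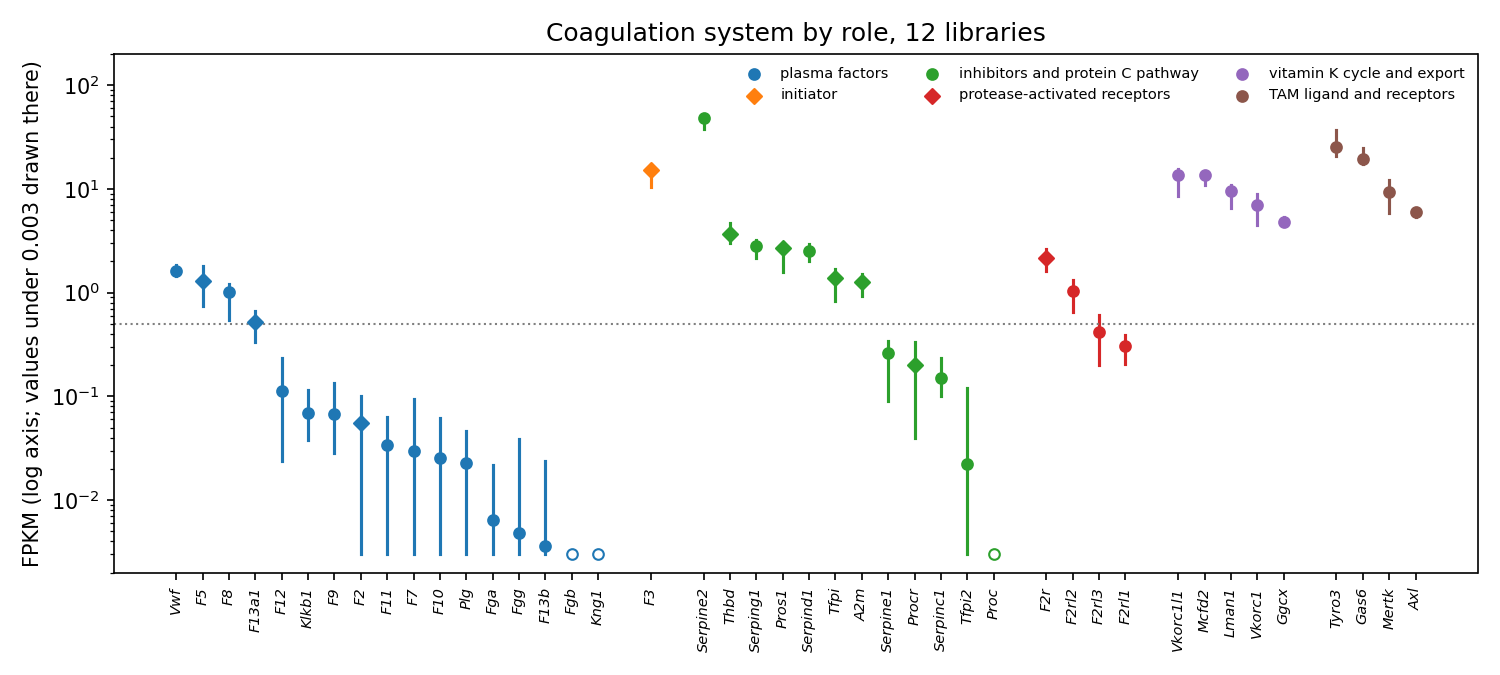
Mean FPKM (log axis) of 43 genes of the coagulation system grouped by role, with vertical lines from the lowest to the highest of the 12 libraries, diamonds for the 10 member genes and open symbols for genes listed at 0 in every library. Most plasma factors lie under the dotted line at 0.5 FPKM, while F3, the vitamin K cycle and the TAM receptors lie above it.

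The other genes of the system were taken from a list of 63, of which 26 reached 0.5 FPKM. Of 14 further plasma factors, 11 averaged under 0.1 FPKM, among them the vitamin K-dependent zymogens F7 (0.03 FPKM), F9 (0.0672 FPKM) and F10 (0.0257 FPKM). Fgb, a fibrinogen chain, and Kng1 were listed at 0 in all 12 libraries, and plasminogen (Plg) averaged 0.0228 FPKM. The cofactor gene F8 and the carrier Vwf, both products of endothelium, averaged 1.01 and 1.62 FPKM. The highest genes of the list were Serpine2 (48.5 FPKM), which encodes protease nexin-1, an inhibitor of thrombin and of plasminogen activators, and Lrp1 (45.8 FPKM). Tyro3, a receptor for protein S and Gas6, averaged 25.5 FPKM and its ligand Gas6 19.3 FPKM. C1qbp (22.3 FPKM), a mitochondrial protein that also binds kininogen, and Anxa5 (17.5 FPKM), which covers procoagulant phospholipid, completed the 6 highest.

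The comparison of each knockout strain with WT asked whether loss of Plat was accompanied by a change in these genes. F2 and Procr were under the minimum, so 8 of the 10 members entered the test. None of the 8 passed in Old against WT (limma, 0 at an adjusted p under 0.05 and 0 at an unadjusted p under 0.05), against 0.0247% of the 16203 tested genes called. At an unadjusted p under 0.05 the share of all tested genes was 1.67%. None passed in New against WT either (0 adjusted and 0 unadjusted), against 0.00617% of tested genes called and 2.22% unadjusted. With the strains averaged and set against WT the members again gave 0 adjusted and 0 unadjusted, against 0.0123% and 2.22%. Both comparisons use the same WT libraries and are not independent. The ranges of Old and WT did not overlap for 0 of the 10 members, against 1.1% of tested genes. For New and WT the number was 0 of 10, against 2.6%, and for Old and New it was 0 of 10, against 1.79%.

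Of the 8 tested members 6 lay above WT in Old, with a median difference of 0.11 against 0.03 for all tested genes. In New 6 of 8 lay above WT, with a median of 0.13 against 0.06. Without WT 4 and Old 1 the count was 6 of 8 in Old (median 0.06 against -0.00120) and 3 of 8 in New (median -0.01 against -0.00622). Without WT 4 alone, the differences in Old against WT were -0.03 for F3, -0.12 for Pros1, -0.27 for F5 and 0.02 for Tfpi, and without Old 1 alone that of F5 was 0.12. The members' 95% intervals differed in width. That of F3 ran from 0.873-fold to 1.34-fold in Old and from 0.881-fold to 1.35-fold in New relative to WT, and that of F5 from 0.679-fold to 1.42-fold in Old and from 0.681-fold to 1.42-fold in New. The highest upper ends were 1.52-fold in Old (F13a1) and 1.59-fold in New (Tfpi). A missed threshold does not show that the levels were equal.

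**Figure D3:**
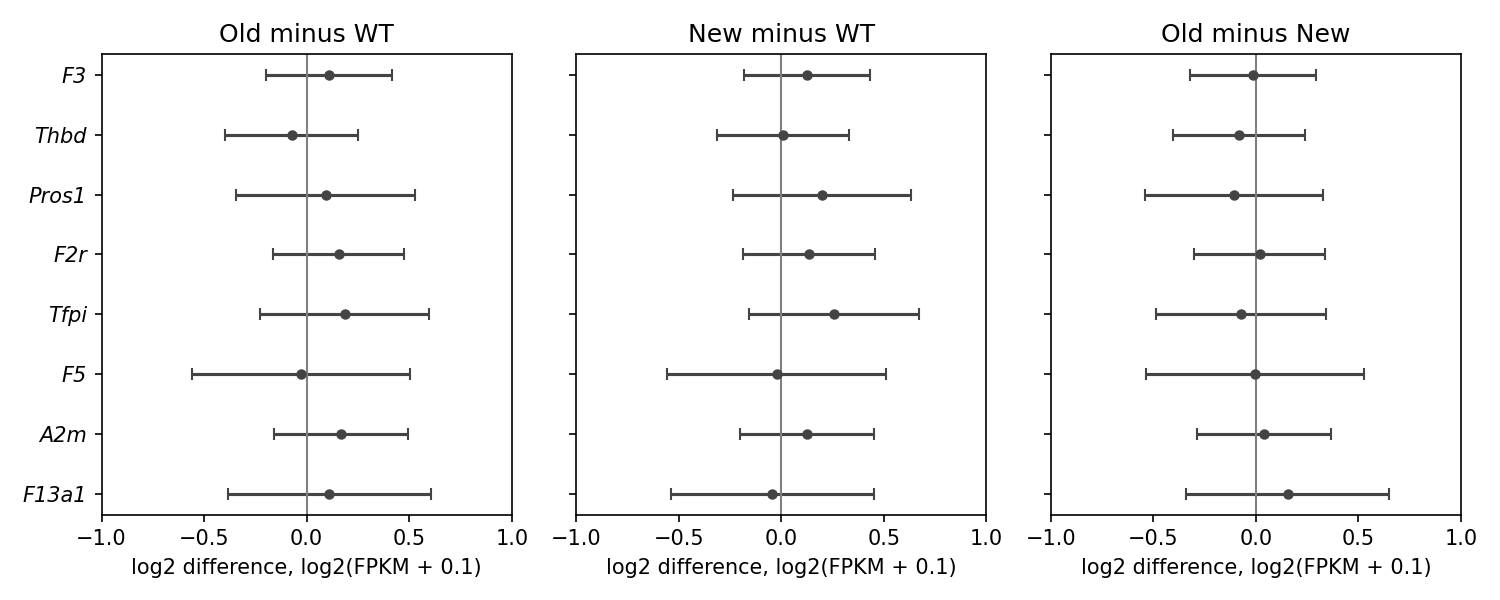
Difference on the log2(FPKM + 0.1) scale (points) with 95% intervals from limma (bars) for the 8 tested members in Old minus WT, New minus WT and Old minus New (n = 4 mice per group). Every interval includes 0, and those of F5 and F13a1 are the widest.

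The strains were also compared with each other. None of the 8 members passed in Old against New (limma, 0 adjusted and 0 unadjusted), against 0.0123% of tested genes called and 1.14% at an unadjusted p under 0.05. The largest difference was that of F13a1, 0.15 (95% interval -0.34 to 0.65; adjusted p = 0.985). It was 0.27 without Old 1, 0.28 without New 3, 0.08 without Old 3, 0.08 without Old 4 and 0.02 without New 2. The smallest difference was that of F5, -0.00454 (-0.54 to 0.53; adjusted p = 1), which was 0.14 without Old 1. Bounds on the fold of Old over New were 0.687 and 1.57 over the 8 members. Old lay above New for 3 of 8 members as deposited and for 6 of 8 without WT 4 and Old 1.

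Of the 26 other tested genes of the system, 0 passed in Old against WT, New against WT or Old against New (limma, adjusted p under 0.05), and 0 had an unadjusted p under 0.05. In Old 17 lay above WT and 9 below, with a median of 0.03 against 0.03 for all tested genes. In New 19 lay above and 7 below, with a median of 0.09 against 0.06. Without WT 4 alone the median of the list was -0.03 in Old and 0.03 in New, and without WT 4 and Old 1 it was 0.000206 in Old and 0.03 in New. Serpine2 stood at 48.1 ± 2.84 FPKM in Old, 51.0 ± 1.34 FPKM in New and 46.5 ± 5.70 FPKM in WT (SD, n = 4 each), and its lowest library was WT 4 at 37.9 FPKM.

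Many of the lowest member values were those of Old 1 and WT 4. Old 1 was the Old library farthest from its group mean for 5 of the 8 tested members, and WT 4 the WT library farthest from its own for 4. WT 4 was the lowest of the 12 libraries for 6 of the 8 tested members, and for 4 of them (F2r, F3, F5 and Pros1) WT 4 and Old 1 were the lowest pair. The shares of all tested genes were not computed, so these counts do not set the members apart from other genes. On the log2(FPKM + 0.1) scale, the deviations of Old 1 from the mean of the other 10 libraries were -0.58 for F5, -0.56 for Pros1, -0.31 for F13a1, -0.30 for F2r, -0.26 for F3, -0.26 for Thbd, -0.21 for Tfpi and -0.14 for A2m. In WT 4 they were -0.84 for F5, -0.84 for Pros1, -0.29 for F13a1, -0.43 for F2r, -0.59 for F3, -0.08 for Thbd, -0.72 for Tfpi and -0.44 for A2m. The medians over all tested genes were -0.13 in Old 1 and -0.25 in WT 4. The transcripts of Tfpi and Pros1 have the lowest GC content of the 8 (39.7% and 43.4%) and those of A2m and Thbd the highest (49.1% and 51.4%). Over these 8 genes, which share the libraries, the deviation correlated with GC content at 0.2 in Old 1 and 0.71 in WT 4 (Pearson, a description). Astrocyte markers summed to 672.0 FPKM in Old 1 and 623.1 FPKM in WT 4, against 840.5 to 881.1 FPKM in the other 10 libraries. Of the 10 genes of this list, 5 lay below the range of the other 10 libraries, 4 within it and 1 above it in Old 1, and 5 lay below and 5 within it in WT 4. Slc1a2, a glutamate transporter, carried most of the low sum, at 237.9 FPKM in Old 1 and 211.3 FPKM in WT 4 against 365.6 to 409.5 FPKM. Aldoc and Gfap lay within the range of the other libraries in both, and Aldh1l1 was the highest of 12 in Old 1 at 10.6 FPKM. Other lists moved too, in both directions. The platelet list summed to 788.4 FPKM in Old 1 and 753.7 FPKM in WT 4, against 349.7 to 418.7 FPKM in the other 10 libraries. Its largest gene, Nrgn, carried nearly all of this sum, at 768.5 FPKM in Old 1 and 730.0 FPKM in WT 4. The sum therefore follows Nrgn and is not a measure of platelets. The next largest gene of the list, Gp1bb, stood at 19.1 FPKM in Old 1 and 21.8 FPKM in WT 4, against at most 4.58 FPKM in the others. Of the 8 genes, 6 lay within the range of the other libraries and 2 above it in Old 1. In WT 4, 5 lay within it and 3 above it. The striatum and hypothalamus lists also summed above the range of the other libraries in both. The neuron list summed to 1545.5 FPKM in Old 1 and 1375.55 FPKM in WT 4, against 1660.6 to 1785.2 FPKM, with 4 of its 9 genes below and 5 above the range of the other libraries in each. The choroid plexus list summed to 330.7 FPKM in Old 1 and 241.8 FPKM in WT 4, against 323.8 to 419.2 FPKM. The part of any of these cell types in the member values was not tested.

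**Figure D4:**
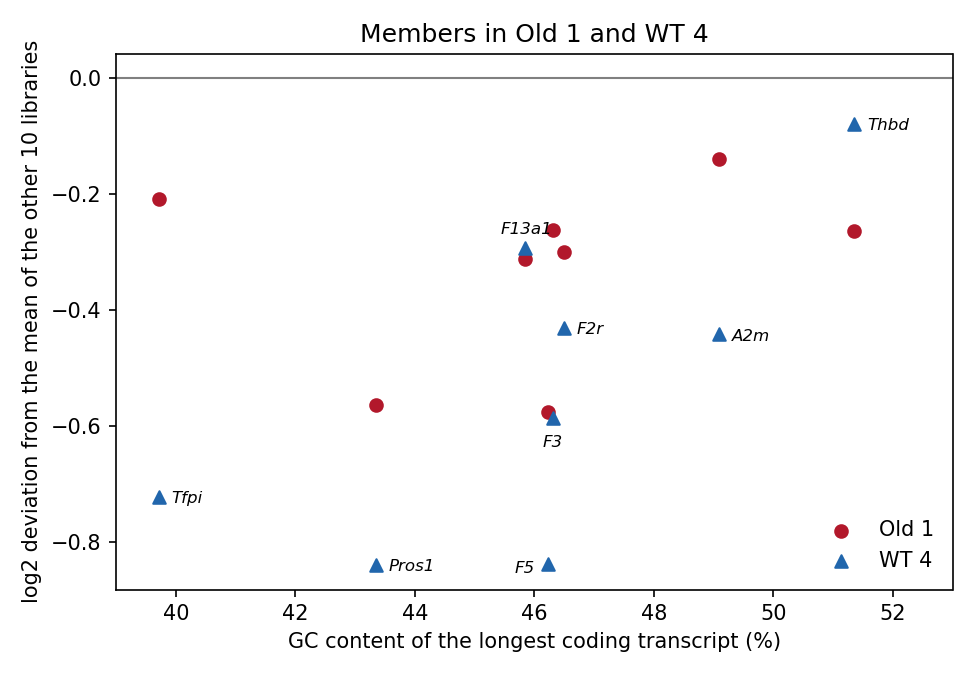
Deviation of the 8 tested members in Old 1 (circles) and WT 4 (triangles, named) from the mean of the other 10 libraries on the log2(FPKM + 0.1) scale, against the GC content of the longest coding transcript. All 16 points lie below 0, and Thbd lies nearest to 0 in WT 4.

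After the mean of each group was subtracted, all 28 pairs of tested members correlated above 0 across the 12 libraries (median Pearson r 0.54). In the 10 libraries without WT 4 and Old 1 the number was 16 of 28, with a median of 0.12. The share over pairs of all tested genes was not computed, so these numbers do not set the members apart. The tested genes most like F3 in this measure were Srxn1 (r = 0.99 over 12 libraries, 0.95 over 10), Pramef8 (0.98 and 0.90) and Gm410 (0.98 and 0.87). Those most like F2r were Ndp (0.96 and 0.94), Itga1 (0.96 and 0.90) and Dbr1 (0.96 and 0.91). Pros1 was most like Katnal1 (0.99 and 0.88), Gpr116 (0.99 and 0.86) and Spcs2 (0.99 and 0.81), and F5 was most like 3110057O12Rik (0.98 and 0.92), Ccdc55 (0.98 and 0.87) and Rgs4 (0.97 and 0.90). Tfpi was most like Gpi1 (0.97 and 0.95), Sec24d (0.94 and 0.92) and Efemp1 (0.92 and 0.89), and A2m was most like Snhg4 (0.97 and 0.96), Mtap (0.95 and 0.93) and Dnajc12 (0.92 and 0.94). Thbd, for which WT 4 was not low, was most like Rgl1 (0.88 and 0.96), Olfr856-ps1 (0.87 and 0.91) and Acot4 (0.86 and 0.85). F13a1 was most like Uxt (0.93 and 0.93), Klhdc7a (0.93 and 0.95) and Amacr (0.92 and 0.89). These genes are the highest of 16203 by choice, and the coefficients describe the libraries only.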

How the data were processed

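Brain RNA of 12 mice was sequenced. Per the labels' protocols, the kit selected polyA RNA and does not mark strand, while a label describes depletion of ribosomal RNA. The authors deposited FPKM values, 1 column per mouse. The submitters' processing notes name mm10 and the tools Cuffdiff 2.1.1, Cufflinks, TopHat2 2.0.9 and Bowtie2 2.1.0. For the annotation and the library scaling, no source used here gives details. An FPKM of 0 means that a gene is listed at 0.

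Genes with a mean of at least 0.5 FPKM (16203 of 27131) were analysed as log2(FPKM + 0.1), a scale that understates changes of low genes. A single limma 3.58.1 model (R 4.3.3) held the 3 groups, with a trended empirical Bayes variance. P-values were adjusted by the Benjamini-Hochberg method across the tested genes, with a threshold of 0.05. Replicates are separate mice. The fit was also run on simulated data with the spread of the libraries other than WT 4 and Old 1. That run does not show how the fit behaves with these libraries included. Coordinates and transcripts come from GENCODE M21 on mm10, and promoters from RefSeq (GRCm38.p6). Fragment numbers are estimates that assume an effective length of 200 bases under the transcript length (genes of at least 1000 bases with 1 transcript), and cover no counting error. The Old and New replicate numbers follow accession order and pair no samples. All members are reported, with the 6 highest other genes of the system, the receptor paralogues, Serpine2, Plg and the 3 genes most like each tested member. Of the marker lists, a few of the highest genes are named. Other named genes were chosen after their values were seen. The members and lists were chosen with earlier results of these data known.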

Additional observations from a re-analysis of the deposited data

Results flagged for a closer look

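Thbd in Old 3 stood far above the other Old libraries, at 4.67 FPKM against 3.09 to 3.29 FPKM, a gap of 0.878 of the range of the group. Of 30 groups of 4 values examined (10 genes in 3 groups), it was the 1 value that stood apart in this way, and chance marks about 1 in 20 such groups. New 4 (4.46 FPKM) and New 3 (4.21 FPKM) reached nearly the same level. Leaving out Old 3 gave a difference of -0.21 for Old against WT on the log2(FPKM + 0.1) scale, against -0.07 with it, and neither passed.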

How the results depend on the processing

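Alternatives changed the pseudocount (0.01 and 1), the filter (none, or a mean of at least 2 FPKM), the scaling (median ratio, quantile), library weights, the mean-variance trend, the groups fitted, a term for libraries with Ddx3y at 1 FPKM or more, and the libraries (without each in turn, and without WT 4 and Old 1). None of the members or of the other coagulation genes passed in any of the 4 contrasts under any of these. The lowest adjusted p of a member was 0.498 (limma) over 712 values, each a member's difference in a contrast under an alternative. The sign of a member's difference turned in 75 of the 712, in 20 of 32 member comparisons. Many of the 712 could not turn, because the alternative left the difference unchanged, such as removing a New library for Old against WT. The share of 75 in 712 therefore understates how easily the signs turned. Removing WT 4 turned F3 in Old against WT to -0.03 and Pros1 to -0.12. In New against WT, median ratio and quantile scaling left 5 of 8 members above WT, and library weights left 3. Old lay above New for 8 of 8 members with library weights, 5 with median ratio scaling and 4 with quantile scaling, against 3 as deposited. The count of all genes called moved by over 1.5 times in a few cases. For Old against WT (4 genes) it was 8 with library weights, 8 without WT 4 and Old 1 and 2 with these groups alone, and for New against WT (1 gene) it was 2 with weights and 2 without these libraries. For Old against New (2 genes) it was 14 with weights, 6 without these libraries and 1 with the stricter filter. For the mean of both strains (2 genes) it was 5 with weights, and 1 with a pseudocount of 0.01, the stricter filter, quantile scaling or without Old 4. No paired analysis was possible because the titles give no number shared between groups. Depth limits F2 and Procr, whose values rest on few fragments.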
